A study of Mus musculus with 6 samples.

Results

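The tumour suppressor gene Trp53 and 7 genes that the p53 protein is known to activate (Cdkn1a, Mdm2, Ccng1, Bax, Bbc3, Sesn1 and Trp53inp1) were followed in liver RNA of control and lipophagy-induced mice. These 8 genes were chosen by symbol, and all 8 were found among the 24346 gene symbols of the deposited table. The control group was 3 male mice (C57BL/6 in the labels, C57BL/6J in the methods of the study) that had received AAV8 encoding the lipid droplet-targeting sequence of mouse Plin1 (LDTS) fused to mCherry and to an LC3-interacting region (LIR) of OPTN whose binding was abolished by alanine substitutions (LDTS-LIR mut). The Lipophagy group was 3 such mice that had received LDTS-eLIR, in which the same region was engineered for stronger binding by phosphomimetic and tryptophan substitutions, so that both groups carried the virus and the droplet-targeting part. All 6 mice were fed CDAHFD, a high-fat diet that lacks choline and takes its protein from defined amino acids, for 6 weeks from 8 weeks of age, and were analysed after 2 weeks on normal diet. The liver-specific TBG promoter drove both proteins, so that they were expressed in hepatocytes and not by design in other liver cells. Values are FPKM, fragments scaled to transcript length and to the mapped fragments of a library, and each of the 6 columns is 1 liver.

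p53 is a transcription factor that is kept at a low level by the ubiquitin ligase Mdm2 and is stabilised by DNA damage and other stresses. It binds a pair of short half-sites in its target genes, whose products stop the cell cycle, trigger apoptosis, alter metabolism, repair DNA or restrain p53 itself. Because p53 is regulated mostly as a protein, its activity is often read from the RNA of its targets and not from its own RNA. Cdkn1a encodes p21, an inhibitor of cyclin-dependent kinases, and in liver p21 is known as a brake on hepatocyte division that is induced in injured and steatotic tissue, also by factors other than p53.

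The promoters of the 8 genes were searched for the p53 half-site, 10 bases of purines, a C, A or T bases, a G and pyrimidines, which reads the same on both strands. RefSeq windows of 300 bases (250 before and 50 after a transcription start, GRCm38.p6) were searched for 7 of the 8 genes, all but Trp53inp1, in 11 windows. A perfect half-site was in 6 of these 11 windows and in 6 of the 7 genes, against 8.36% of all 32851 windows. The matches are shown so that the letters behind these counts can be read, with the half-sites in capitals and 10 bases on each side in lower case, 5′ to 3′ on the strand of the gene.
Cdkn1a: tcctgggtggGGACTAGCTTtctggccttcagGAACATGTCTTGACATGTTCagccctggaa
Ccng1: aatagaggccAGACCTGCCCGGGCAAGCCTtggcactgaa
Mdm2: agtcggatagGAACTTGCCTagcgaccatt
Bax: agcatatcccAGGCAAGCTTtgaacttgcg
Trp53: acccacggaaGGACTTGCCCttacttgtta
Sesn1: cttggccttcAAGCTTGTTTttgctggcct

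The Cdkn1a stretch lies at chr17:29090896-29090957 on the plus strand, and its matches run from 73 to 32 bases before the first of 2 annotated starts. It holds 2 perfect half-sites separated by 12 bases and, directly behind the second of them, another 10 bases with 1 mismatch. The Ccng1 stretch (chr11:40755452-40755491, minus strand) is a pair of half-sites without a gap and with 1 mismatch, beginning 195 bases before the start. Such a pair, with a gap of at most 13 bases and at most 1 mismatch, was in 2 of the 11 windows and in 0.627% of all windows. Single half-sites were found for Mdm2 (chr10:117710925-117710954, minus strand), Bax (chr7:45467080-45467109, minus strand), Trp53 (chr11:69580274-69580303, plus strand) and the second start of Sesn1 (chr10:41887256-41887285, plus strand). The 3 windows of Bbc3, the second start of Cdkn1a and the first start of Sesn1 held none of these letters. A match describes the sequence and is not evidence of binding, and p53 sites outside these windows, in introns for example, were not searched.

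All 8 genes were expressed above the minimum used here, a mean of 0.5 FPKM over the 6 livers, which 11493 genes passed. Of the 8, 6 (75.0%) had a negative and 2 a positive log2 change in the Lipophagy group, beside 45.5% of all tested genes with a negative one, and 0 had an adjusted p below 0.05 (limma with Benjamini-Hochberg adjustment over all tested genes). Of all genes 3, or 0.0261% of those tested, had an adjusted p below 0.05, and between 1 and 11 when 1 liver was left out. At an unadjusted p below 0.05, 1 of the 8 genes (Cdkn1a) was lower, against 7.97% of all tested genes, and 0 were higher, against 11.5%. The median log2 change of the 8 genes was -0.137, beside 0.020 for all tested genes. Lipophagy livers lay entirely below control livers for 2 of the 8 genes (Cdkn1a and Bax), against 10.8% of all tested genes, and entirely above them for 0, against 15.4%. In shares, 12.5% of the 8 genes were lower with a low p and 25.0% lower without overlap, and 1 gene is 12.5% of so small a group.

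**Figure D1:**
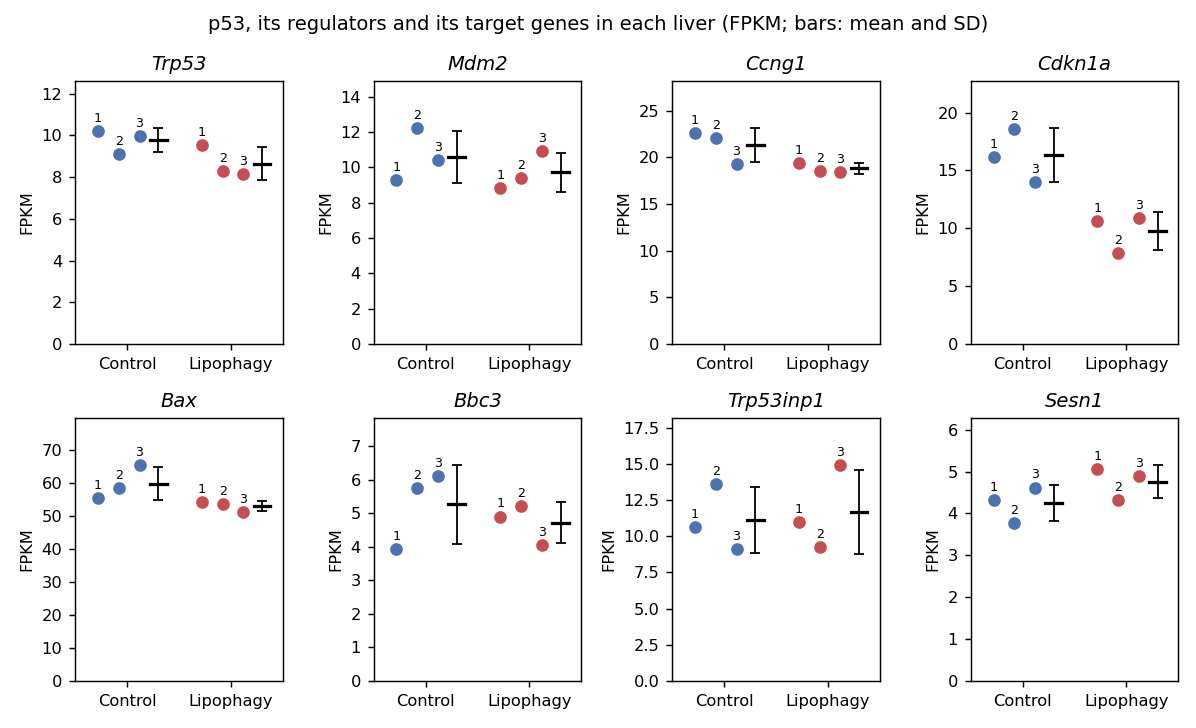
FPKM of the 8 genes (y axis, from 0) in each of 3 control livers (blue) and 3 lipophagy livers (red); the number beside a point is the replicate and the black bars are the group mean and SD. The groups are apart for Cdkn1a (14.0 to 18.6 against 7.90 to 10.9 FPKM) and narrowly for Bax (55.5 to 65.3 against 51.1 to 54.1 FPKM), and they overlap for the other 6 genes.

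Trp53 itself, which encodes p53, was at 10.2, 9.12 and 9.95 FPKM in control livers 1, 2 and 3 and at 9.55, 8.28 and 8.13 FPKM in lipophagy livers 1, 2 and 3. Lipophagy liver 1 lay between the control livers, so the groups overlapped. The log2 change was -0.16 (SE 0.0887, 95% interval -0.36 to 0.0456, adjusted p = 0.35, limma). The gene lies at chr11:69580348-69591873 on the plus strand. The related genes Trp63 and Trp73, which encode p63 and p73, were below the expression minimum and not tested, with at most 0.0323 FPKM of Trp63 in any liver and Trp73 listed at 0 in all of them.

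Among genes that restrain p53, Mdm2, the ubiquitin ligase that marks p53 for degradation and is itself a p53 target, was at 9.27, 12.2 and 10.4 FPKM in control livers 1 to 3 and at 8.82, 9.40 and 10.9 FPKM in lipophagy livers 1 to 3. The groups overlapped, and the difference was smaller than the spread between livers (log2 change -0.11, SE 0.117, 95% interval -0.38 to 0.15, adjusted p = 0.603, limma). Leaving out control liver 1 or 2 gave -0.20 or -0.0188, and leaving out lipophagy liver 1 or 3 gave -0.0536 or -0.19. Ccng1 encodes cyclin G1, a p53 target that works with Mdm2. It was at 22.6, 22.1 and 19.3 FPKM in control livers 1 to 3 and at 19.4, 18.5 and 18.4 FPKM in lipophagy livers 1 to 3. Control liver 3 was just under lipophagy liver 1, and the other livers of the groups were apart (log2 change -0.17, SE 0.0845, adjusted p = 0.297, limma). With quantile normalization the change was -0.26. Over the 8 listed negative regulators of p53, 6 were lower and 2 higher, 0 of them with an unadjusted p below 0.05 (7.97% of all tested genes were lower and 11.5% higher at that p), and the median log2 change was -0.066. The lowest change was that of Mdm4, an Mdm2 relative that blocks the activation domain of p53, with a log2 change of -0.33 (adjusted p = 0.263, limma). The highest was that of Rfwd2, which encodes the ubiquitin ligase COP1. It was at 7.80 to 9.36 FPKM in control livers and 9.53 to 9.99 FPKM in lipophagy livers, with a log2 change of 0.16 (adjusted p = 0.327, limma) that was 0.0975 without control liver 1.

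Upstream of p53, 13 kinases, cofactors and other activators were listed and 11 were tested. Of these 5 were lower and 6 higher, with a median log2 change of 0.010. Rpl5, a ribosomal protein that can bind Mdm2, was the one with an unadjusted p below 0.05, or 9.09% of the 11 beside 11.5% of all tested genes higher at that p. It was at 183, 207 and 216 FPKM in control livers 1 to 3 and at 255, 261 and 223 FPKM in lipophagy livers 1 to 3, so that the groups did not overlap, as for 15.4% of all tested genes in this direction (log2 change 0.29, SE 0.101, adjusted p = 0.204, limma). With quantile normalization the change was 0.0887. The lowest change was that of the acetyltransferase Ep300, at -0.19 on the log2 scale (adjusted p = 0.327, limma), and -0.11 both without lipophagy liver 1 and with quantile normalization. The DNA damage kinases Atm and Atr, picked with their values known, had log2 changes of 0.050 and 0.0394.

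Cdkn1a, the p21 gene, had the largest log2 change of the 8. It was at 16.2, 18.6 and 14.0 FPKM in control livers 1, 2 and 3 and at 10.6, 7.90 and 10.9 FPKM in lipophagy livers 1, 2 and 3. Every lipophagy liver lay below every control liver, with control liver 2 the highest and lipophagy liver 2 the lowest of the 6. The mean was 16.3 ± 2.32 FPKM (SD, n = 3) in control livers and 9.79 ± 1.64 FPKM (SD, n = 3) in lipophagy livers, a ratio of 0.602. The log2 change was -0.68 (SE 0.140, 95% interval -1.01 to -0.36). The unadjusted p was 0.00123 and the adjusted p 0.124 (limma), so that the difference exceeded the spread between livers but missed the threshold set for 11493 genes. A two-sided exact permutation test of the FPKM means gave p = 0.1, the smallest that 3 livers against 3 allow. By p, Cdkn1a was gene 110 of 11493, and 0.539% of the tested genes had a lower log2 change. The estimated number of fragments behind a value was 349 to 917, which gives a counting error of at most 5.35%, and the SD between livers was 14.2% of the mean in control and 16.8% in lipophagy livers. The gene lies at chr17:29090979-29100722 on the plus strand and shares 273 exon bases with a poorly supported gene model on the other strand, whose reads can be told apart only if strand was used in the counting, which the sources used here do not state.

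**Figure D2:**
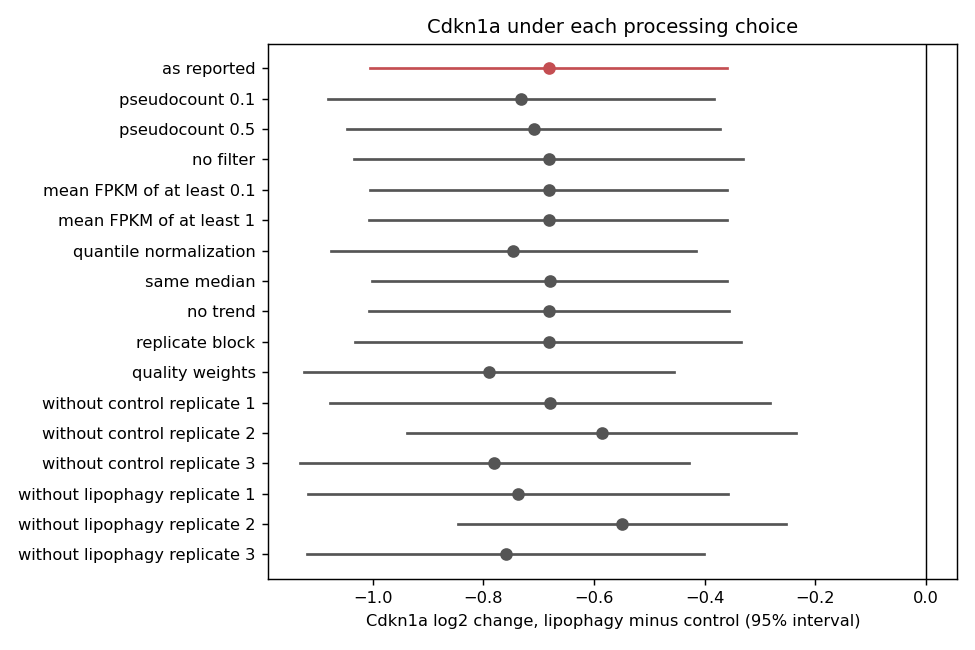
Log2 change of Cdkn1a (x axis, lipophagy minus control) with its 95% interval, as reported (red) and under each of 16 other processing choices (grey, y axis). All estimates lie between -0.79 and -0.55 and no interval reaches 0.

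Without any 1 liver the log2 change of Cdkn1a stayed between -0.78 and -0.55. The value closest to 0 was that without lipophagy liver 2 (adjusted p = 0.141, limma), a liver that stood apart in red blood cell transcripts, with 4 listed genes summing to 431 FPKM against 107 to 153 FPKM in the other 5. Other cell type markers moved with the groups as well. The summed level of 9 hepatocyte markers was 66000 to 88800 FPKM in lipophagy livers and 55100 to 62000 FPKM in control livers, a separation that came from Alb, since the 8 other markers summed to 21000 to 24800 FPKM against 19600 to 22900 FPKM. Levels this high identified the tissue as liver in both groups. Stellate cell markers summed to 31.5 to 37.3 FPKM against 47.3 to 51.9 FPKM, with 5 of 8 lower at an unadjusted p below 0.05. Most of that level is the collagen genes Col1a1, Col1a2 and Col3a1. Des, Reln and Lrat, which were not among the 5, had log2 changes of -0.05, -0.111 and 0.251. The summed macrophage markers, most of whose level is Lyz2, overlapped between the groups (464 to 590 against 478 to 629 FPKM). Of 8 tested, 5 were lower, 3 of these (Cd68, Csf1r and Itgam) at an unadjusted p below 0.05. Clec4f, Marco and Adgre1 went the other way, with log2 changes of 0.167, 0.134 and 0.054, and 0 were higher at that p. Lymphocyte markers did not overlap (5.41 to 6.01 against 6.95 to 8.08 FPKM). Neutrophil markers met at the edge (15.1 to 17.8 against 17.7 to 30.3 FPKM). The part of these cells in the Cdkn1a difference was not tested, and in whole tissue fewer cells of a type and less RNA per cell cannot be told apart.

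Within a liver, ratios of 2 genes do not depend on the scaling of the library, and the following were chosen after their values were seen. Cdkn1a stood to Trp53 as 1.59, 2.04 and 1.40 in control livers 1 to 3 and as 1.11, 0.954 and 1.34 in lipophagy livers 1 to 3. Its ratio to Mdm2 was 1.75, 1.53 and 1.34 in control livers and 1.20, 0.841 and 0.998 in lipophagy livers. Both ratios were lower in every lipophagy liver than in every control liver. They restate the Cdkn1a values on a scale free of library size, since Cdkn1a is in both, and are no separate evidence.

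Cdkn1a belongs to the CDK inhibitors. Of the 7 family genes, 5 were tested and 4 of these were lower, 1 of them (Cdkn1a) with an unadjusted p below 0.05, and the median log2 change was -0.014. Of all tested genes 45.5% were lower, 7.97% at that p. Cdkn2c, which encodes p18, had the highest log2 change of the family, 0.00644, a sign that turned under 4 of 16 alternatives, quantile normalization (-0.067) among them. It was at 13.6, 11.5 and 14.1 FPKM in control livers 1 to 3 and at 13.5, 13.3 and 12.5 FPKM in lipophagy livers 1 to 3. Since FPKM is per transcript length, the levels can be compared: Cdkn1a overlapped Cdkn2c in control livers and lay below it in all 3 lipophagy livers. The ratio of Cdkn1a to Cdkn2c was 1.20, 1.62 and 0.989 in control livers and 0.783, 0.594 and 0.874 in lipophagy livers. Cdkn1b, the p27 gene and a relative of Cdkn1a picked with its values known, was at 5.83 to 6.47 FPKM in control and 5.07 to 7.48 FPKM in lipophagy livers. Cdkn2a and Cdkn2b, at or below 0.307 FPKM in each liver, were not tested.

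Bax and Bbc3 encode proapoptotic proteins of the BCL2 family, Bax forming pores in the outer mitochondrial membrane and Bbc3 encoding PUMA, which relieves Bax of its inhibitors. Bax had the highest level of the 8 genes, with 55.5, 58.4 and 65.3 FPKM in control livers 1 to 3 and 54.1, 53.6 and 51.1 FPKM in lipophagy livers 1 to 3. The lipophagy livers were all below the control livers, but lipophagy liver 1 by a small step below control liver 1. The log2 change was -0.17 (SE 0.0853, 95% interval -0.37 to 0.0275, adjusted p = 0.309, limma), -0.10 without control liver 3 and -0.31 with quantile normalization, and the exact permutation test gave p = 0.1. Bax (chr7:45461695-45466903, minus strand) shares 192 exon bases with a predicted gene on the same strand, so that part of its reads may have been assigned to either. Bbc3, the least deeply covered of the 8 with 167 to 345 estimated fragments a liver, was at 3.92, 5.74 and 6.11 FPKM in control livers 1 to 3. In lipophagy livers 1 to 3 it was at 4.90, 5.22 and 4.05 FPKM, all within the control range (log2 change -0.12, SE 0.150, adjusted p = 0.692, limma). Without control liver 1, its lowest control, the change was -0.28. Leaving out control liver 2 or 3 gave -0.0518 or -0.0138, and leaving out lipophagy liver 3 gave -0.0276.

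Of the whole BCL2 family, 14 of 16 genes were tested, 10 lower and 4 higher, with a median log2 change of -0.075. Mcl1, an antiapoptotic member, was the one with an unadjusted p below 0.05, or 7.14% of the 14 beside 7.97% of all tested genes lower at that p. It was at 36.5, 36.9 and 42.4 FPKM in control livers 1 to 3 and 29.8, 33.5 and 35.3 FPKM in lipophagy livers 1 to 3, without overlap (log2 change -0.22, SE 0.0963, adjusted p = 0.252, limma; -0.35 with quantile normalization). The highest change was that of Bad, a proapoptotic member, at 0.18 (adjusted p = 0.418, limma). It was 0.0958 without control liver 1, 0.28 without lipophagy liver 3 and 0.0728 with quantile normalization. The ratio of Bax to the antiapoptotic gene Bcl2l1, chosen after its values were seen, was 3.92, 3.82 and 3.85 in control livers and 3.83, 3.72 and 2.34 in lipophagy livers, where lipophagy liver 3 stood apart. The ratio of Bax to Mcl1 was 1.52, 1.58 and 1.54 in control livers and 1.82, 1.60 and 1.45 in lipophagy livers, on both sides of the controls.

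Sesn1 and Trp53inp1 were the 2 genes of the 8 with a higher mean in lipophagy livers. Sesn1 encodes sestrin 1, which restrains mTORC1 when leucine is scarce and takes part in antioxidant defence. It was at 4.31, 3.77 and 4.62 FPKM in control livers 1 to 3 and at 5.07, 4.32 and 4.90 FPKM in lipophagy livers 1 to 3. Lipophagy liver 2 lay among the control livers and the other two lay above them (log2 change 0.14, SE 0.0945, 95% interval -0.0779 to 0.36, adjusted p = 0.43, limma), and the change was 0.0748 without control liver 2. Its relatives were at low levels too, Sesn2, picked with its values known, with a log2 change of 0.0747 and Sesn3 with the lowest change of the listed mTORC1 regulators, -0.15 (adjusted p = 0.378, limma), or -0.0983 without lipophagy liver 2 and -0.0636 with quantile normalization. Among the 12 sestrins and mTORC1 regulators 8 were higher and 4 lower, with a median of 0.050, beside 54.5% of all tested genes higher.

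Trp53inp1 encodes a stress protein that supports p53-dependent apoptosis and, by binding LC3, autophagy. It was at 10.6, 13.6 and 9.09 FPKM in control livers 1 to 3 and at 11.0, 9.26 and 14.9 FPKM in lipophagy livers 1 to 3. The livers of the groups were interleaved, with lipophagy liver 3 the highest and control liver 3 the lowest. The log2 change was 0.0669 (SE 0.183, 95% interval -0.35 to 0.49, adjusted p = 0.861, limma), was 0.21 without control liver 2 or without lipophagy liver 2, and turned its sign when control liver 3 (-0.0552) or lipophagy liver 3 (-0.11) was left out and when livers were weighted by quality (-0.0741). With 1121 to 1952 estimated fragments a liver its counting error was at most 2.99%, while the SD between livers was 20.4% of the mean in control and 24.7% in lipophagy livers.

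In control livers the order of levels was Bax, Ccng1, Cdkn1a, Trp53inp1, Mdm2, Trp53, Bbc3 and Sesn1, with means of 59.7, 21.3, 16.3, 11.1, 10.6, 9.76, 5.26 and 4.24 FPKM. The ranges of Trp53inp1, Mdm2 and Trp53 overlapped each other, as did those of Bbc3 and Sesn1, and Cdkn1a lay above Trp53inp1, Mdm2 and Trp53 in every control liver. In lipophagy livers the means were 52.9, 18.8, 11.7, 9.79, 9.72, 8.65, 4.76 and 4.72 FPKM for Bax, Ccng1, Trp53inp1, Cdkn1a, Mdm2, Trp53, Sesn1 and Bbc3. Cdkn1a then overlapped Trp53inp1, Mdm2 and Trp53.

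The other known p53 targets were read from 4 lists by role, which together held 35 genes beside the 8, of which 34 were tested. Of these 22 were lower and 12 higher. At an unadjusted p below 0.05, 10 of the 34, or 29.4%, were lower, beside the 7.97% of all tested genes, and 1 was higher, beside 11.5%. The median log2 change of the 34 was -0.092, and -0.042 without lipophagy liver 3. The lowest adjusted p among them was 0.0937 (limma), above the threshold. With those of the 8 that are on these lists included (all but Trp53 and Mdm2), 11 of 40 were lower with an unadjusted p below 0.05. This count was 7 of 40, or 17.5%, without control liver 2, when 5.79% of all tested genes were, and 8 without lipophagy liver 2. In the same livers 5 of 8 stellate cell, 3 of 8 macrophage and 2 of 3 tested lymphocyte markers were lower with an unadjusted p below 0.05, and their part in these counts was not tested. Cdkn1a, Zmat3, Plk3 and Phlda3 were lower at this threshold under all 17 ways of processing, and Eda2r and Tnfrsf10b in the 16 that tested them.

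**Figure D3:**
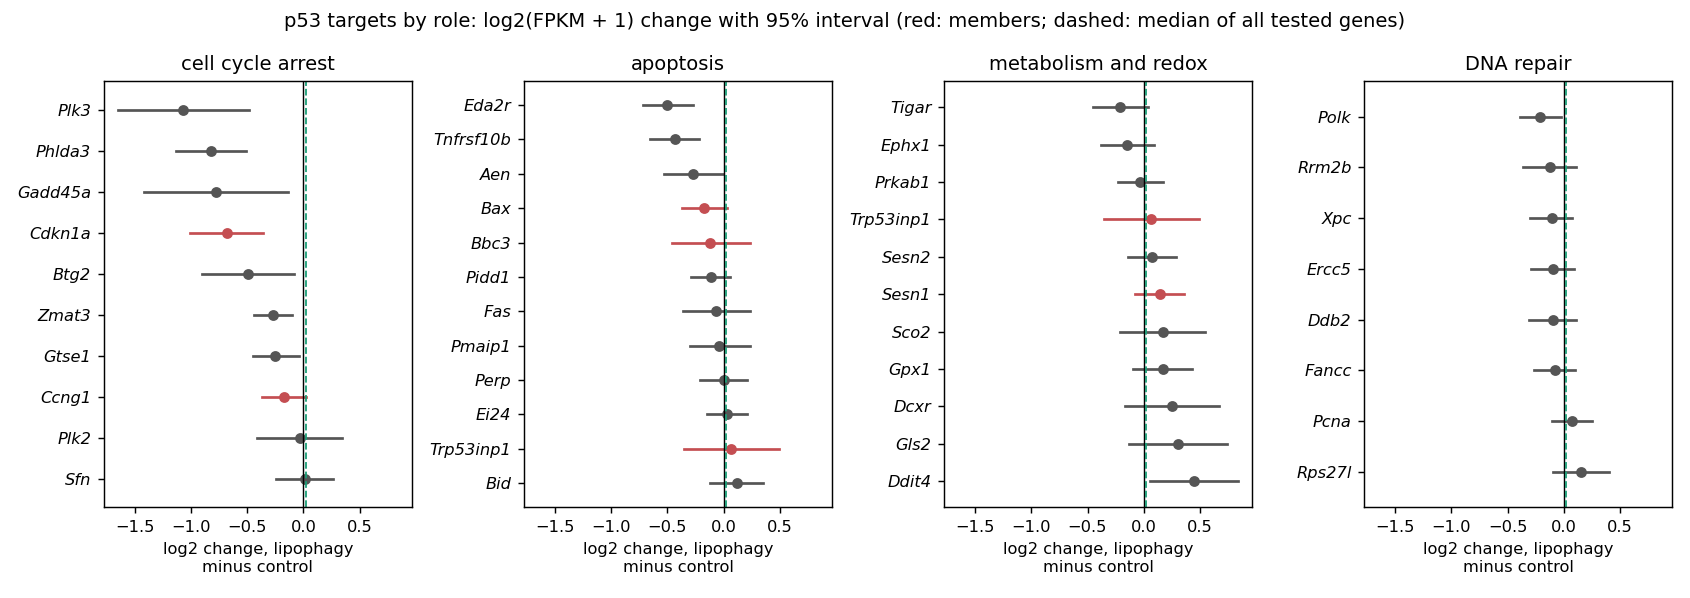
Log2(FPKM + 1) change (x axis, lipophagy minus control) with its 95% interval for each tested p53 target, in 4 panels by role (y axis, genes sorted by change); red marks the 6 targets among the 8 genes on these lists and the dashed line the median of all tested genes (0.020). Intervals of 7 of 10 genes listed under cell cycle arrest lie below 0, against 3 of 12 apoptosis, 0 of 11 metabolism and 1 of 8 DNA repair genes.

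The counts by role stand beside 45.5% of all tested genes lower and 7.97% lower with an unadjusted p below 0.05. Of 10 genes listed under cell cycle arrest, some of which have other roles too, 9 were lower, and the median log2 change was -0.382. With an unadjusted p below 0.05, 7 (70.0%) were lower. Without lipophagy liver 1, those of this list lower at that p were Cdkn1a, Zmat3, Plk3 and Phlda3. Phlda3, which inhibits Akt signalling, was at 9.56, 10.6 and 9.98 FPKM in control livers 1 to 3 and at 6.26, 5.69 and 4.05 FPKM in lipophagy livers 1 to 3. Its groups were far apart, with a ratio of means of 0.531 (log2 change -0.82, SE 0.135, adjusted p = 0.0937, limma). Plk3, a stress-responsive kinase, was at 37.6, 40.8 and 39.3 FPKM in control livers 1 to 3 and at 12.6, 16.0 and 29.6 FPKM in lipophagy livers 1 to 3. The control livers were close together and the lipophagy livers were not, with liver 3 nearest to the controls (log2 change -1.07, SE 0.255, adjusted p = 0.135). Without that liver the adjusted p was 0.0146 (limma) and the log2 change -1.40.

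Zmat3, an RNA-binding protein gene, was at 1.43, 1.45 and 1.36 FPKM in control livers 1 to 3 and at 0.953, 1.08 and 0.951 FPKM in lipophagy livers 1 to 3. The spread within each group was small beside the difference (ratio of means 0.705, log2 change -0.27, adjusted p = 0.151, limma), and at these levels log2(FPKM + 1) understates the change. Gtse1, which moves p53 out of the nucleus and is a gene of dividing cells, had 0.874 to 1.19 FPKM in control and 0.644 to 0.805 FPKM in lipophagy livers (log2 change -0.25, adjusted p = 0.204, limma; -0.16 with quantile normalization). The remaining 2 of the 7, Btg2 and Gadd45a, overlapped between the groups and were named after their values were seen, with log2 changes of -0.49 and -0.78. The highest change in this list was that of Sfn, 14-3-3 sigma, at 0.0130, which was at 0.805 to 1.23 FPKM in all livers and turned its sign when control liver 1 or 2 or lipophagy liver 1 or 2 was left out.

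Of 12 tested apoptosis targets 8 were lower, 3 (25.0%) with an unadjusted p below 0.05 beside the 7.97% of all tested genes, and the median log2 change was -0.092. Fas, a death receptor gene of this list picked with its values known, overlapped between the groups. It was at 13.1 to 17.0 FPKM in control and 12.0 to 15.9 FPKM in lipophagy livers (log2 change -0.0682). Both death receptor genes that separated the groups were at low levels. Eda2r, a receptor for ectodysplasin A2, was at 1.51, 1.13 and 1.02 FPKM in control livers 1 to 3 and at 0.517, 0.554 and 0.634 FPKM in lipophagy livers 1 to 3 (ratio of means 0.465, log2 change -0.50, adjusted p = 0.124, limma). Tnfrsf10b, a receptor for TRAIL, was at 0.662, 0.954 and 0.956 FPKM in control livers 1 to 3 and at 0.401, 0.430 and 0.291 FPKM in lipophagy livers 1 to 3 (ratio of means 0.436, log2 change -0.43, adjusted p = 0.134, limma). All lipophagy livers were below all control livers for both. Their estimated fragments were 56 to 186 and 22 to 98 a liver, fewer than behind Cdkn1a. Bid, which links death receptors to mitochondria, had the highest change of this list, 0.12 (adjusted p = 0.537, limma), and leaving out control liver 2 or lipophagy liver 1 or 3 gave 0.0665, 0.21 or 0.053. Apaf1, the one listed target below the expression minimum, was at 0.507 to 0.688 FPKM in control and 0.347 to 0.412 FPKM in lipophagy livers.

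Of the 11 metabolic and redox targets 8 were higher and 3 lower, with a median log2 change of 0.140, and 1 (9.09%) was higher at an unadjusted p below 0.05. Of all tested genes 54.5% were higher, 11.5% at that p. Ddit4, which encodes the mTORC1 inhibitor REDD1 and is also induced by glucocorticoids and hypoxia, was the one with an unadjusted p below 0.05. It was at 2.79, 3.52 and 2.13 FPKM in control livers 1 to 3 and at 3.89, 3.38 and 5.36 FPKM in lipophagy livers 1 to 3. Lipophagy liver 2 lay within the control range (log2 change 0.45, SE 0.171, adjusted p = 0.222, limma), and without liver 3 the change was 0.29. Tigar, a phosphatase that slows glycolysis, had the lowest change, with 2.68 to 3.64 FPKM in control and 2.29 to 2.68 FPKM in lipophagy livers (log2 change -0.21, adjusted p = 0.313, limma), and -0.11 without control liver 1. Of the 8 DNA repair targets 6 were lower, 1 (12.5%) with an unadjusted p below 0.05 beside the 7.97% of all tested genes, and the median was -0.101. Polk, a translesion polymerase, was at 1.40, 1.60 and 1.32 FPKM in control livers 1 to 3 and 1.06, 1.08 and 1.18 FPKM in lipophagy livers 1 to 3, without overlap (log2 change -0.21, adjusted p = 0.223, limma; -0.13 with quantile normalization). Rps27l, a ribosomal protein paralogue, had the highest change of that list, 0.15 (adjusted p = 0.471, limma), 0.0728 without control liver 1, 0.0783 without lipophagy liver 1 and -0.0664 with quantile normalization.

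**Figure D4:**
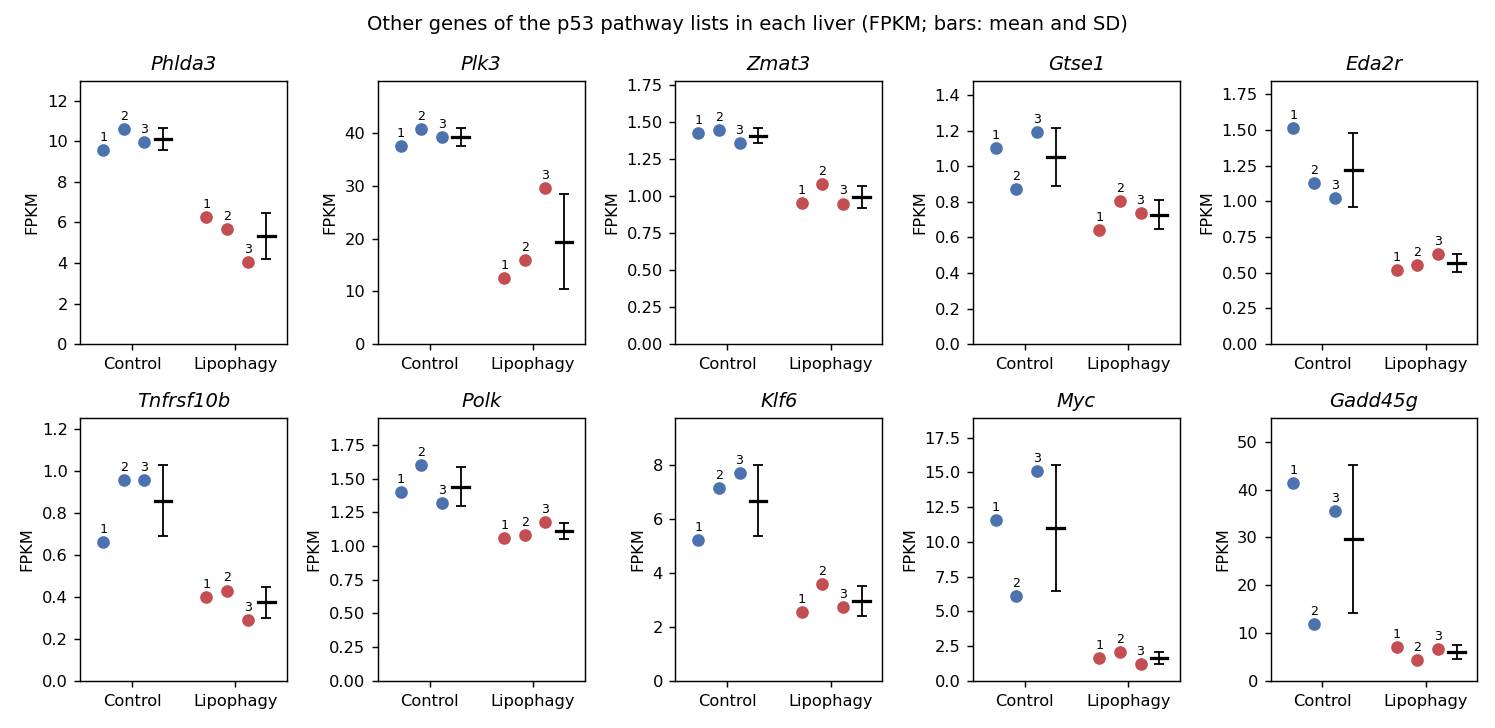
FPKM (y axis, from 0) of 7 other p53 targets and of Klf6, Myc and Gadd45g in each of 3 control livers (blue) and 3 lipophagy livers (red); the number beside a point is the replicate and the black bars are the group mean and SD. In each of these 10 genes, which were shown because their groups do not overlap, the highest lipophagy liver lies below the lowest control liver.

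Promoter windows were given for 27 of the other targets, in 31 windows, of which 7 held a perfect half-site (22.6%) and 2 a pair of half-sites (6.45%), beside 8.36% and 0.627% of all windows.

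Genes downstream of p21 were listed as G1 cyclins with their kinases and as genes repressed through p21 and the DREAM complex, which silences genes of dividing cells. Of the 14 tested DREAM genes all 14 were lower, their median log2 change was -0.239, and 1 (7.14%) had an unadjusted p below 0.05, beside 45.5% of all tested genes lower and 7.97% lower at that p. This was Plk1, a mitotic kinase, at 1.02, 1.27 and 1.13 FPKM in control livers 1 to 3 and at 0.636, 1.0 and 0.629 FPKM in lipophagy livers 1 to 3 (log2 change -0.29, SE 0.104, adjusted p = 0.204, limma). Lipophagy liver 2 was just under the lowest control liver and the other two were well below. The lowest change was that of the mitotic cyclin Ccnb2, at 2.87, 4.41 and 6.93 FPKM in control livers 1 to 3 and 1.59, 4.24 and 2.31 FPKM in lipophagy livers 1 to 3. Its groups overlapped (log2 change -0.63, SE 0.306, adjusted p = 0.295, limma), and the change was -0.36 without control liver 3 and -0.40 without lipophagy liver 1. The change nearest to 0 was that of the replication gene Mcm2 (-0.0564), whose sign turned under 4 of 16 alternatives, quantile normalization (0.0244) among them. Relative to each gene's mean over the 6 livers, the median of the list was -0.103, 0.237 and 0.203 in control livers 1 to 3 and -0.284, 0.195 and -0.234 in lipophagy livers 1 to 3 on the log2 scale. Lipophagy liver 2 lay among the control livers, and control liver 1 was the lowest of the controls.

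Bile duct markers, most of whose level is Spp1, had a like order. They summed to 137, 239 and 247 FPKM in control livers 1 to 3 and 92.0, 196 and 102 FPKM in lipophagy livers 1 to 3. Their part in the values of the dividing-cell genes was not tested. Lipophagy liver 2, with the lowest Cdkn1a, had the highest median of the dividing-cell genes in its group, and control liver 2, with the highest Cdkn1a, also had the highest median in its group. Among G1 genes 6 of 8 tested were lower, 1 (12.5%) with an unadjusted p below 0.05 beside the 7.97% of all tested genes, and the median was -0.050. Ccnd2, cyclin D2, was at 0.901, 0.793 and 0.663 FPKM in control livers 1 to 3 and 0.563, 0.523 and 0.476 FPKM in lipophagy livers 1 to 3, without overlap (log2 change -0.23, adjusted p = 0.204, limma; -0.14 with quantile normalization). The highest change was that of Ccne1, cyclin E1, at 0.19 (adjusted p = 0.554, limma), and it was 0.33 without lipophagy liver 1 and -0.0232 without lipophagy liver 3, where it was highest with 2.48 FPKM.

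Several transcription factors other than p53 are known to act on Cdkn1a. Of 14 such genes tested 10 were lower, 3 (21.4%) with an unadjusted p below 0.05, beside 45.5% and 7.97% of all tested genes, and the median log2 change was -0.108. Klf6, an activator of Cdkn1a, was at 5.22, 7.16 and 7.71 FPKM in control livers 1 to 3 and at 2.56, 3.60 and 2.73 FPKM in lipophagy livers 1 to 3. No lipophagy liver came near the control livers (log2 change -0.95, SE 0.149, adjusted p = 0.0915, limma). Myc, which represses Cdkn1a, was at 11.6, 6.14 and 15.1 FPKM in control livers 1 to 3 and at 1.63, 2.11 and 1.20 FPKM in lipophagy livers 1 to 3. The groups were far apart although the control livers varied, control liver 2 being the lowest of them (log2 change -2.11, SE 0.274, adjusted p = 0.071, limma). Without control liver 2 the adjusted p of Myc was 0.00725 (limma). The highest change was that of Foxo1, an activator of Cdkn1a that insulin signalling inhibits, at 0.24 (adjusted p = 0.399, limma), and it was 0.0761 without lipophagy liver 3.

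Among relatives of the cyclin G, Trp53inp and Gadd45 genes, 5 of 6 were lower, 1 (16.7%) with an unadjusted p below 0.05 beside the 7.97% of all tested genes, and the median was -0.055. Gadd45g, a stress gene whose product binds p21, was at 41.3, 11.9 and 35.6 FPKM in control livers 1 to 3 and at 7.12, 4.41 and 6.59 FPKM in lipophagy livers 1 to 3. All lipophagy livers were lower than control liver 2, which was itself well below the other 2 controls. The log2 change was -1.97 (SE 0.406, adjusted p = 0.124, limma) and without control liver 2 it was -2.50, with an adjusted p of 0.00725 (limma).

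Among the genes outside these lists whose pattern over the 6 livers was most like that of Cdkn1a were Plac8 (Pearson's r of log2(FPKM + 1) 0.993), Nfe2l2 (0.985), Plekha2 (0.982) and Syde1 (0.982). These 4 were lower in every lipophagy liver than in every control liver, as follows from their likeness to Cdkn1a. Plac8 was at 34.2, 37.0 and 32.0 FPKM in control livers 1 to 3 and 29.5, 26.5 and 29.1 FPKM in lipophagy livers 1 to 3. Nfe2l2, which encodes the antioxidant regulator NRF2, was at 42.2, 45.1 and 42.4 FPKM in control livers 1 to 3 and 37.1, 33.7 and 37.3 FPKM in lipophagy livers 1 to 3. These values are a description over 6 livers that share their libraries and groups, and 130 of 11492 genes (1.13%) had an r above 0.9.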

How the data were processed

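Liver RNA of 3 control and 3 lipophagy-induced mice was sequenced by the authors in paired-end mode from stranded poly(A) libraries, and the sample labels gave groups and replicate numbers. The authors deposited FPKM per gene symbol and liver. Their processing notes name TopHat2 2.0.13, Bowtie2 2.2.3, SAMtools 0.1.19, Cufflinks 2.2.1 and the build mm10, while the annotation and the use of strand are not given in the sources used here. FPKM are scaled to gene length and to mapped fragments and not counts, which is why a linear model on the log scale was fitted. Their sums were 622696 to 681138 in control and 709993 to 782392 in lipophagy livers, and a few abundant liver transcripts can thus lower all others in a library. From steps in low values and GENCODE transcript lengths less 150 bases, depth was estimated as 23.8 to 34.0 M fragments in control and 22.9 to 24.8 M in lipophagy livers. Such fragment numbers cover counting error only. In 27 cases a gene name had been turned into a date.

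From the deposited values log2(FPKM + 1) was computed, and genes averaging 0.5 FPKM or more over the livers were fitted with limma 3.58.1 under R 4.3.3 (trend, no covariates, two-sided, all 6 livers), with Benjamini-Hochberg adjustment over all 11493 genes and a threshold of 0.05. A log2 change on this scale understates changes of low genes. Replicates are separate mice, and p-values measure the spread between them. Exact permutation tests were computed with scipy 1.17.1. The procedure was tested on simulated data. Alternatives were pseudocounts of 0.1 and 0.5, no filter or a minimum of 0.1 or 1 FPKM, medians set equal, quantile normalization, no trend, a replicate block, quality weights, and each liver left out. Promoters and gene positions are from RefSeq and GENCODE on GRCm38, the assembly named mm10.

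The members and gene lists were chosen with earlier results of these data known, so lists are described by counts and medians, without a test. Named were all 8 members; from each list the gene with the largest rise, that with the largest fall and each gene with separate groups and an unadjusted p below 0.05; and the 5 genes outside the lists most correlated with Cdkn1a. Of the genes this rule names, 2 are not reported here. Some listed genes below the expression minimum are named too. Any other gene, cell type markers aside, is marked in the text as picked with its values known. With a pseudocount of 0.1 the log2 changes of genes near 1 FPKM were up to -1.01 (Tnfrsf10b, -0.43 as reported).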

Additional observations from a re-analysis of the deposited data

How the results depend on the processing

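Over 16 alternatives, the log2 change of Cdkn1a ranged from -0.79 (quality weights) to -0.55 (without lipophagy liver 2), with adjusted p from 0.0658 to 0.336 (limma), and 0 of the 8 members passed the threshold under any of them. At an unadjusted p below 0.05, between 1 and 4 members did, the 4 (Trp53, Cdkn1a, Ccng1 and Bax) under quantile normalization. These 4 were lower, and 7.82% of all tested genes were lower at that p under quantile normalization. That share was 5.24% to 9.7% over the alternatives. The median of the members stayed between -0.181 and -0.099. The number of genes with an adjusted p below 0.05, 3 as reported, was 1 without a filter, 39 with quality weights and 1 to 11 with 1 liver left out. The p53 targets lower at an unadjusted p below 0.05 were 7 to 11 with 1 liver left out (7 without control liver 2). In these fits 5.24% to 8.2% of all tested genes were lower at that p. The targets higher at that p were 0 without a filter, 0 with quality weights and 0 to 2 with 1 liver left out. The median of the other p53 targets was -0.108 to -0.042 with 1 liver left out.

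With the replicate number as a replicate block, 43 genes passed the threshold, 3 p53 targets were higher at an unadjusted p below 0.05, Cdkn1a had an adjusted p of 0.119, and Gadd45g (0.0139), Klf6 (0.0211), Myc (0.0252) and Phlda3 (0.0496) had an adjusted p below the threshold (limma). The sources used here do not state whether the numbers pair the mice. Deviations from a mean of 3 livers cannot decide it, because they sum to 0 within a group. Those of same-numbered livers correlated at 0.2496, 0.2339 and -0.05654, and control liver 3 correlated best with lipophagy liver 2 (0.2506).

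Of 602 values of single genes under an alternative, 585 kept their direction, and the other 17 belonged to 6 genes whose reported log2 changes were between -0.0564 and 0.19. Trp53inp1 was -0.0741 with quality weights, Mcm2 0.00998 with quality weights and 0.0244 with quantile normalization, Cdkn2c -0.067 and Rps27l -0.0664 with quantile normalization. With 1 liver left out the ranges were -0.11 to 0.21 for Trp53inp1, -0.0232 to 0.33 for Ccne1, -0.0764 to 0.0612 for Cdkn2c, -0.18 to 0.0218 for Mcm2 and -0.0427 to 0.11 for Sfn. With quality weights Klf6 and Phlda3 also passed, both with an adjusted p of 0.0456 (limma). Except where a liver was left out, the cause of these differences was not tested. Depth limited Bbc3 most of the members, with a counting error of up to 7.74% of a value.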
